A study of Mus musculus with 4 samples.

Results

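The S100 proteins are small calcium-binding proteins, most of which act as pairs. Here 10 S100 genes were followed in mouse colon (S100a1, S100a4, S100a6, S100a8, S100a9, S100a10, S100a11, S100a14, S100a16 and S100g). The members were all probes whose gene name in the array files was one of these symbols, which gave 14 probes of 39429 on the array, or 10 of 22368 named genes. All 14 probes were well above background on all 4 arrays, so no filter on dim signals removed a member. S100a1, S100a4, S100a16 and S100g had 2 probes each, and the other 6 genes had 1 probe each.

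The study asked how loss of Pla2g3, the gene of the secreted group III phospholipase A2, changes the colon at rest and in azoxymethane (AOM)-induced carcinogenesis. RNA was pooled from the colons of 3 to 5 male mice of each group, all 42 weeks old and of a B6.129 background at backcross generation 3. The 4 groups were Pla2g3+/+ (WT) and Pla2g3-/- (KO) mice that received saline as the vehicle, and WT and KO mice that received AOM, a colon carcinogen, by intraperitoneal injection at 10 mg/kg once weekly for 6 weeks. The last injection preceded removal of the colon by 28 weeks. By genotype the KO mice lack the gene in the whole animal and not in 1 cell type. The labels describe the colons of both AOM groups as cancer tissue, and the share of tumor in each pool is not given. One array was hybridized per pool and all 4 lay on 1 slide, so the differences below are between 2 pools, have no replicate check and carry no test. The number of arrays limits the precision.

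S100 proteins carry 2 EF-hand motifs, the fold that binds calcium. Most change shape when calcium binds, which exposes a surface for partner proteins such as annexins and non-muscle myosin. Several are also released from cells. S100a8 and S100a9 together form calprotectin, the abundant cytosolic protein of neutrophils and monocytes that sequesters metal ions and is measured in stool as a sign of gut inflammation. In the intestine, S100g (calbindin-D9k) carries calcium across the absorbing cell under the control of vitamin D. Most S100 genes lie in 1 cluster on mouse chromosome 3, and S100g lies on chromosome X.

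The upstream sequences of S100a8, S100a9 and S100g are shown because these genes had the largest differences between pools among the 10. Each covers 250 bases before and 30 bases after the annotated start, taken from RefSeq on GRCm38.p6. They are chr3:90668821-90669100 on the plus strand for S100a8, chr3:90695692-90695971 on the minus strand for S100a9 and chrX:162964570-162964849 on the minus strand for S100g. Capitals mark matches on either strand to the TATA box, by the letters TATAAA, and to TTNNGNAA, the motif of C/EBP factors.
S100a8: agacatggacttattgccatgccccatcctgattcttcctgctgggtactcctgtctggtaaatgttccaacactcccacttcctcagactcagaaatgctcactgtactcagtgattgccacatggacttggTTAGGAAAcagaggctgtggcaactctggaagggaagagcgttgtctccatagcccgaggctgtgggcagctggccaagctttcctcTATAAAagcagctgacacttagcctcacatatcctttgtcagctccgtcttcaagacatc
S100a9: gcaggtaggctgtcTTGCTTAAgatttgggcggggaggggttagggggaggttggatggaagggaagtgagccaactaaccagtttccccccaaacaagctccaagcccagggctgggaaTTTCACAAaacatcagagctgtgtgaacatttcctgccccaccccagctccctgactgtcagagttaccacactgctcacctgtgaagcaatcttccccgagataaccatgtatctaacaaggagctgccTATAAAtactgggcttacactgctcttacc
S100g: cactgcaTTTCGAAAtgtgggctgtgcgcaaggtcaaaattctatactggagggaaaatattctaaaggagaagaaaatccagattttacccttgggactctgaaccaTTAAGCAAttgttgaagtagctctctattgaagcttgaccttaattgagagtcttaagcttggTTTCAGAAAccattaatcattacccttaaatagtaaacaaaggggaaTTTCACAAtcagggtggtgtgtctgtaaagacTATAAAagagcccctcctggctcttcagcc
S100a8 held 1 C/EBP match, from base 134 to base 141 of the window, and a TATA box from base 221 to base 226, ahead of the start. S100a9 held 2 C/EBP matches, from bases 15 and 121, and its TATA box lay at the annotated start itself, from base 251 to base 256. S100g held 5 C/EBP matches, a pair of them overlapping, and a TATA box from base 251. In both minus-strand genes shown the box thus lay at the annotated start, and whether transcription begins there was not tested. Across 32851 windows of the same length, 39.3% (12895 windows) held the C/EBP letters and 13.1% (4304 windows) held TATAAA, so both are common. Matches to AP-1 (TGANTCA, in 7.46% of windows) and STAT (TTCNNNGAA, in 7.83% of windows) were also searched. S100a11 held 2 AP-1 matches, 1 of the 2 windows of S100a16 held 1, and S100a4 held a TATA box from base 220. S100a1 and S100a6 held none of the 4 motifs, and 8 of the 10 genes had a window in the table. These matches describe the letters and no binding was measured.

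Values are relative signals, that is spot intensities in units of the 75th percentile over the array, where a value of 1 is that percentile. Levels of single probes are not compared with each other, since probes differ in how well they bind. Summed signals of a marker list add different probes, so the brightest probes set most of a sum. The sums are compared between pools only and do not measure how much of a cell type was present. The array software's own error of the 14 spots was 10% to 13.1% of the signal, which gives 0.204 to 0.259 on the log2 scale for a ratio of 2 arrays. It was 10.0% for every spot outside S100a8 and S100a9. Each of these probes had 1 spot, so the error is the software's estimate and was not measured from repeated spots. For probes with 5 or more spots, the median SD of log2 intensity within an array was 0.066 to 0.079. The array error does not cover the spread between mice. Where 2 probes reported the same gene, their log2 ratios differed by at most 0.158, with a median difference of 0.055. The 2 S100g probes share 46 bases by position and are not independent.

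Across the arrays, 64.8% to 69.4% of 43020 spots were well above background and no spot was saturated. Pla2g3 itself went against the genotype labels. Its brightest probe gave relative signals of 0.531 in the WT vehicle, 0.656 in the KO vehicle, 0.232 in the WT AOM and 1.40 in the KO AOM pool, and after AOM all 3 probes were higher in the pool labeled KO. Whether these probes lie in the deleted part is not given. The names KO and WT below therefore mean the pools so labeled. Single pools also stood apart in some markers of other cell types. Markers of smooth muscle were at a summed relative signal of 29.1 in the WT AOM pool and at 475 to 523 in the other 3. Markers of pancreatic acinar cells were at 44.6 in the KO vehicle pool and at 0.171 to 0.386 in the other 3. Markers of stratified squamous epithelium were at 24.9 in the KO AOM pool and at 7.09 to 8.28 in the other 3. Most of this excess was Krt5, at 15.3 in the KO AOM pool and 0.027 to 0.056 in the other 3. Between the AOM pools, 1 of 9 squamous markers with a value was over 2-fold higher in KO mice and 2 were over 2-fold lower. Ltf (lactoferrin) had 9.83 in the KO AOM pool and 0.359 or less elsewhere. All 8 simple epithelium markers and all 7 colonocyte and goblet cell markers were well above background on every array.

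Between the vehicle-treated pools, no S100 gene differed by 2-fold. Of 16391 genes with a value, 1.92% were over 2-fold higher in the KO pool and 1.32% over 2-fold lower. The median log2 ratio was -0.04 for the 10 genes and -0.02 for all genes. S100a9 was 1.45-fold lower and S100g 1.45-fold higher in the KO pool, and these were the 2 genes whose difference was over 2 times the array's error.

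After AOM, 3 of the 10 genes (S100a8, S100a9 and S100a11) were over 2-fold lower in the KO pool than in the WT pool, beside 12.9% of 17194 genes, and none was over 2-fold higher, beside 15.1%. The median log2 ratio was 0.21 for the 10 genes and 0.03 for all genes. In WT mice, 3 genes were over 2-fold higher after AOM than with vehicle (S100a8, S100a9 and S100a11), beside 15.1% of 17277 genes, and 3 were over 2-fold lower (S100a1, S100a10 and S100g), beside 22.4%. In KO mice, S100a8 and S100a9 were over 2-fold higher, beside 9.65% of 16514 genes, and S100g over 2-fold lower, beside 15.1%. With 10 genes, these counts are a description and are not read as a result about the family. The comparisons share arrays, so the same pool enters more than 1 of them. The median log2 ratio of AOM over vehicle was -0.06 in WT and -0.26 in KO mice for the 10 genes, and -0.17 and -0.08 for all genes.

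**Figure D1:**
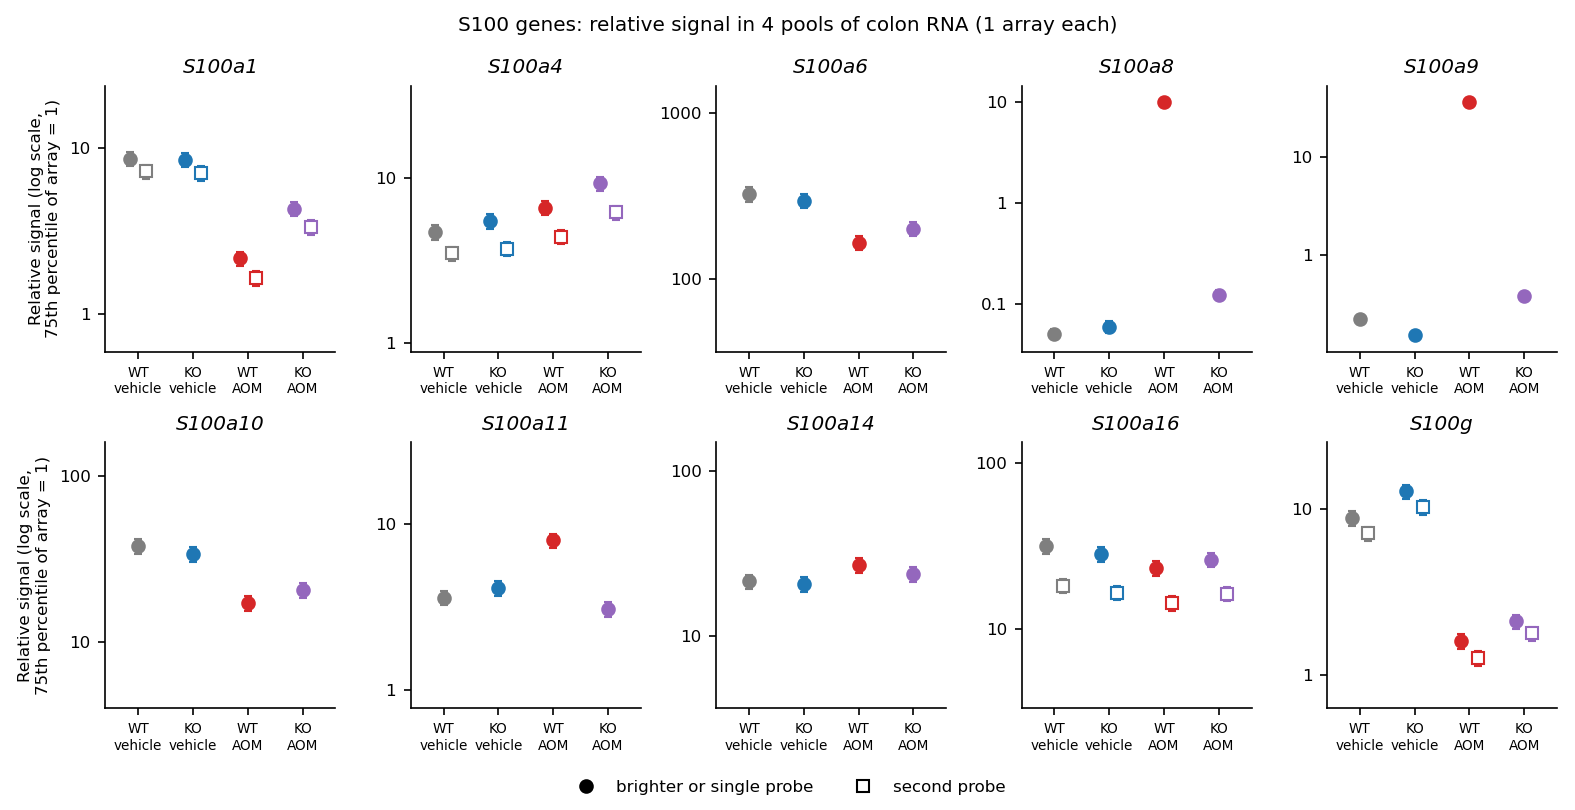
Relative signal (log axis, the 75th percentile of the array is 1; the axes differ between panels) of each S100 probe in the 4 pools, with 1 array per pool and bars of 1 array error. S100a8 reached 10.0 and S100a9 35.7 in the WT AOM pool, and both were at 0.387 or lower in the other 3 pools.

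The calprotectin genes stood farthest from the rest. S100a8 (probe at chr3:90473778-90473837, mm9) had relative signals of 0.051 with vehicle in WT, 0.060 with vehicle in KO, 10.0 after AOM in WT and 0.125 after AOM in KO. S100a9 (chr3:90496573-90496632) had 0.224, 0.155, 35.7 and 0.387 in the same order. For both genes the WT AOM pool alone was high, and the KO AOM pool lay slightly above both vehicle pools.

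In WT mice S100a8 was 196-fold and S100a9 160-fold higher after AOM than with vehicle, which placed them at rank 15 and rank 17 from the top of 17277 genes. In KO mice the same ratios were 2.07-fold and 2.50-fold. S100a8 was 80.5-fold and S100a9 92.4-fold lower in KO than in WT mice after AOM, at rank 42 and rank 36 from the bottom of 17194 genes. The log2 response to AOM in KO minus that in WT mice was -6.56 for S100a8 and -6.00 for S100a9. With vehicle, S100a8 differed by 1.18-fold between genotypes, within its array error.

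The vehicle signals of S100a8 were low, at intensities of 33.0 and 39.1 against 13142 in the WT AOM pool, and the size of its difference moved with the background correction. With the background modeled another way and quantile normalization, the log2 ratio of AOM over vehicle was 6.24 in WT mice and 0.54 in KO mice for S100a8, and 7.10 and 0.87 for S100a9. For KO mice the higher signals after AOM passed 2-fold under the main processing and the other scalings, and not under this one. That of S100a8 was near the threshold, at 1.05 on the log2 scale with an array error of 0.24. With 1 probe each, only the alternatives of scaling and background correction could move these genes. The difference between genotypes after AOM stayed between -6.61 and -5.62 for S100a8 and between -7.01 and -6.46 for S100a9 on the log2 scale.

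The genes whose pattern over the pools was closest to S100a8 and S100a9 were sought, leaving out the 10 genes themselves, among 14788 genes well above background on all arrays, by the distance between their log2 ratios to the WT vehicle pool. Krt36, a keratin of the hair and nail type, was closest to both, at a distance of 0.740 from S100a8 and 0.306 from S100a9. Its relative signals were 0.137, 0.111, 20.4 and 0.267 in the order above. Spock2, a matrix proteoglycan, Stra6, a retinol transporter, and Hdc, the enzyme that makes histamine, were among the 5 closest genes of both. Alox12, a lipoxygenase, was the remaining one for S100a8 at a distance of 1.24. Defa31, an alpha-defensin of a family with near-identical copies whose signal may be shared, was the remaining one for S100a9 at 1.05.

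S100a8 and S100a9 are best known from neutrophils and monocytes, but the arrays do not show which cells of the colon made their RNA. In a pool of tissue, a larger number of such cells, more RNA per cell and RNA from other cells cannot be told apart. Of 13 neutrophil markers, 8 were well above background in each vehicle pool, 11 in the WT AOM pool and 8 in the KO AOM pool. In WT mice 6 of 12 with a value were over 2-fold higher after AOM and 1 was over 2-fold lower, and in KO mice 2 of 9 were higher and 3 lower. Between genotypes after AOM, 5 of 11 were over 2-fold lower in KO mice (Cxcr2, Fpr1, Mmp8, Mpo and Retnlg) and 2 were over 2-fold higher (Ly6g and Ltf). Retnlg, a resistin-like protein of neutrophils, had relative signals of 0.096, 0.214, 0.987 and 0.020. The summed signal of the list was 49.7 to 72.0 on the 4 arrays and lowest in the WT AOM pool. Most of this sum on every array was Csf3r, the receptor for granulocyte colony-stimulating factor. Csf3r had 44.4 to 53.8 and was within 2-fold in all 4 comparisons. Csf3r and Ly6g were both lowest in the WT AOM pool, at 44.4 and 2.60. The order of the sums therefore does not show the order of the dimmer markers. Ngp, a granule protein, was well above background on no array.

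Of 10 monocyte and macrophage markers, 9 had a value. In WT mice 7 of these were over 2-fold higher after AOM, among them Cd68 at 0.436 with vehicle and 2.37 after AOM, and none was lower. In KO mice 1 was higher and 2 were lower. After AOM 7 of 9 were over 2-fold lower in KO than in WT mice, among them Lyz2, the macrophage lysozyme, at 3.59 in WT and 0.976 in KO mice. The summed signals were 12.8, 16.4, 26.9 and 11.7. Cd163 was well above background on no array. Between genotypes after AOM the median log2 ratio was -0.08 for the neutrophil markers and -1.19 for the monocyte and macrophage markers. The neutrophil markers were split, from -5.61 for Retnlg to 4.77 for Ltf, so their median does not describe the single markers. Among them the ratios of Cxcr2, Fpr1 and Mmp8 are bounds, since these were not well above background in the KO AOM pool. The part of these cells in the S100a8 and S100a9 result was not tested.

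The receptors through which released S100 proteins act were also counted. Of 9 such genes, 8 had a value, and after AOM 2 were over 2-fold lower in KO than in WT mice and none was over 2-fold higher. Cd14, a co-receptor of bacterial lipopolysaccharide, had relative signals of 3.08, 2.71, 7.09 and 2.33, so that the WT AOM pool was the highest. Cd33, a myeloid lectin, was 0.035, 0.046, 0.162 and 0.050, with the same pool highest. Tlr4, which binds calprotectin, was within 2-fold in all 4 comparisons, and Ager, the receptor RAGE, was well above background on no array.

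S100a11 binds annexin A1 and takes part in the growth control and differentiation of epithelial cells. Its probe (chr3:93330022-93330081) had relative signals of 3.59 with vehicle in WT, 4.09 with vehicle in KO, 7.95 after AOM in WT and 3.06 after AOM in KO. As with calprotectin, the WT AOM pool was the highest, while the KO AOM pool was the lowest of the 4 and within 2 array errors of the WT vehicle pool. S100a11 was 2.21-fold higher after AOM in WT mice and 1.33-fold lower in KO mice, and 2.59-fold lower in KO than in WT mice after AOM. The log2 ratio between genotypes after AOM stayed between -1.58 and -1.30 under all processing alternatives, and that of AOM over vehicle in WT between 1.12 and 2.17. With 1 probe, only the alternatives of scaling and background correction could move these ratios. In KO mice its direction flipped to 0.43 without scaling between arrays. Its partner Anxa1, a calcium-dependent membrane-binding protein, had 21.8, 20.2, 52.0 and 37.9, and was higher after AOM in both genotypes, by 1.25 in WT and 0.91 in KO mice on the log2 scale.

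S100a4 binds non-muscle myosin and is known for cell movement, fibroblasts and metastasis. Its brighter probe (chr3:90409908-90409967) had relative signals of 4.68, 5.45, 6.58 and 9.23 in the WT vehicle, KO vehicle, WT AOM and KO AOM pools, and the dimmer probe (chr3:90409734-90409793) had 3.49, 3.73, 4.40 and 6.17. Both probes gave the same order, with the KO AOM pool the highest. That pool was 1.40-fold above the WT AOM pool by both probes, while the difference between the WT AOM and KO vehicle pools and that between the vehicle pools were within 2 array errors. S100a4 was 1.41-fold higher after AOM in WT and 1.69-fold higher in KO mice, and without scaling both were past 2-fold, at 1.51 and 1.61 on the log2 scale. Under quantile normalization the KO ratio passed 2-fold at 1.07, and the WT ratio was 0.86. Myh9, a heavy chain of non-muscle myosin, had 11.7, 13.7, 34.2 and 30.3, and was over 2-fold higher after AOM in both genotypes.

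Of 8 fibroblast markers, 5 passed 2-fold upward and 1 downward after AOM in WT mice, and in KO mice 3 passed it upward and none downward. Between genotypes after AOM, 4 were over 2-fold lower and 2 over 2-fold higher in KO mice, and the summed signals were 43.9, 49.1, 129 and 90.6. The WT AOM pool had the highest sum and the KO AOM pool the highest S100a4, but the single markers were mixed. Col1a1, Col1a2, Col3a1, Pdgfra and Vim were highest in the WT AOM pool, and Dpt in the KO vehicle pool. Dcn, at 21.4, 22.8, 37.0 and 45.7, had the same order as S100a4, and Lum was also highest in the KO AOM pool. Their part in the result was not tested.

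S100a6 (calcyclin, which binds the ubiquitin ligase adaptor Cacybp) and S100a10 (which does not respond to calcium and binds annexin A2 at the membrane) had the same order over the pools. S100a6 (chr3:90418160-90418219) had relative signals of 324.8, 296.6, 164.9 and 201.1, and S100a10 (chr3:93368437-93368496) had 37.7, 33.9, 17.2 and 20.5. Both were highest in the vehicle pools and lowest in the WT AOM pool, and within each treatment the 2 genotypes lay within 2 array errors of each other. S100a6 was 1.97-fold and S100a10 2.20-fold lower after AOM in WT mice, against 1.47-fold and 1.65-fold in KO mice.

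The lower S100a6 and S100a10 signals after AOM moved with the scaling. The 75th percentile itself was 646 and 649.8 in the vehicle pools and 1309 and 1169 in the AOM pools, and the intensity of S100a10 before scaling was 24338, 22010, 22466 and 23984. Without scaling, the log2 ratio of AOM over vehicle was 0.04 in WT and 0.29 in KO mice for S100a6, and -0.12 and 0.12 for S100a10. Under quantile normalization that of S100a10 was -0.44 in WT and -0.20 in KO mice, so its WT difference no longer passed 2-fold there either. Cacybp had 5.77, 6.04, 6.04 and 3.27 and Anxa2 had 89.6, 94.3, 126 and 111, and neither differed by 2-fold in any of the 4 comparisons. Across all 11 intracellular partners, 3 passed 2-fold upward and 1 downward after AOM in WT mice. In KO mice 3 passed it upward. Between genotypes after AOM, 2 were over 2-fold higher in KO mice and 1 over 2-fold lower, Anxa6, at 9.09 in WT and 3.54 in KO mice.

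S100a1 is best known from heart and skeletal muscle, where it acts on calcium release and uptake by the sarcoplasmic reticulum. Its brighter probe (chr3:90314959-90315018) had relative signals of 8.67, 8.56, 2.17 and 4.31, and its dimmer probe (chr3:90315191-90315250) had 7.26, 7.09, 1.65 and 3.34. The vehicle pools did not differ beyond the array error, the KO AOM pool was lower and the WT AOM pool the lowest, by both probes. S100a1 was 4.0-fold lower after AOM in WT mice and 1.99-fold lower in KO mice. The size moved with the scaling, and without it the log2 ratio was -0.98 in WT and -0.14 in KO mice, so that the WT difference no longer passed 2-fold. Under quantile normalization the same ratios were -1.72 and -0.73. It was 1.99-fold higher in KO than in WT mice after AOM by the brighter probe and 2.03-fold higher by the dimmer, just either side of the 2-fold threshold.

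S100a13, which is not among the 10 genes, is the neighbor of S100a1. In the RefSeq table the start sites of the pair lie 105 bases apart on opposite strands, S100a1 on the minus and S100a13 on the plus strand. S100a13, which takes part in the release of growth factors without a signal peptide, had 13.4, 14.3, 3.53 and 7.12, and its log2 ratios in the 4 comparisons were 0.10, 1.01, -1.92 and -1.01. Those of S100a1 were -0.02, 0.99, -2.00 and -0.99 in the same order (KO over WT with vehicle and after AOM, then AOM over vehicle in WT and in KO).

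All 7 smooth muscle markers were over 2-fold lower after AOM in WT mice, and none was in KO mice. All 7 were over 2-fold higher in KO than in WT mice after AOM. Acta2, smooth muscle actin, had relative signals of 77.4, 82.6, 11.47 and 92.9. Between KO AOM and KO vehicle 6 of the 7 markers were within 2-fold and 1 was higher, whereas S100a1 and S100a13 were lower in the KO AOM pool than in both vehicle pools. Enteric glia markers, which include no S100 gene, had summed signals of 0.830, 0.999, 0.161 and 0.623, and the glial gene S100b followed at 0.835, 0.928, 0.115 and 0.348. The part of either cell type in these results was not tested.

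**Figure D2:**
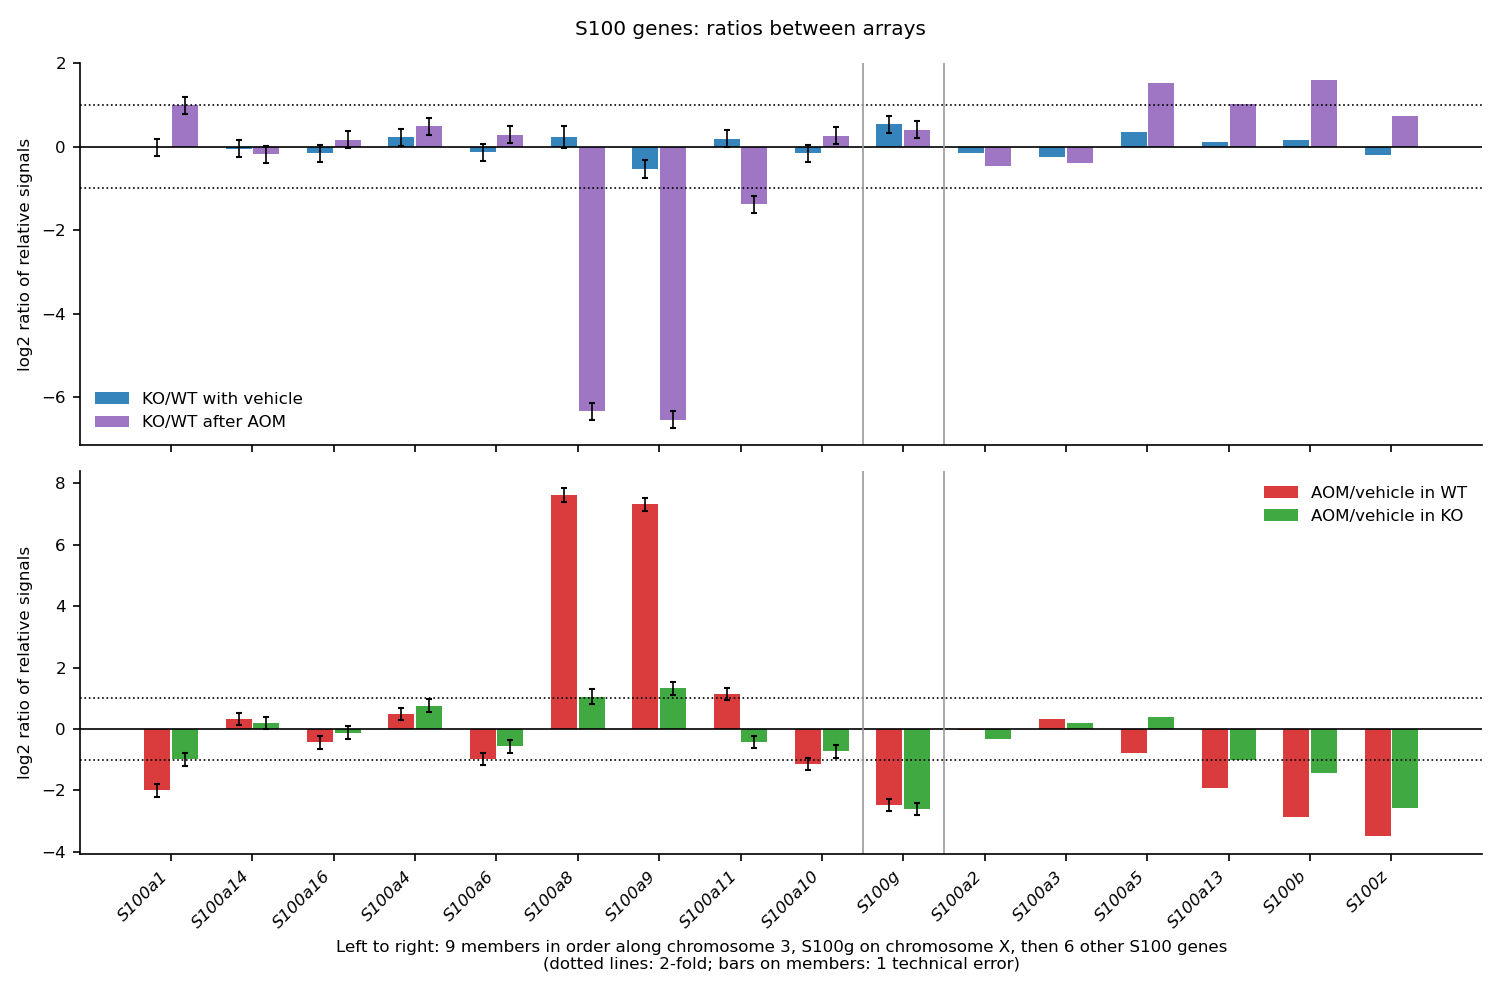
Log2 ratios of the S100 genes, KO over WT in the upper panel and AOM over vehicle in the lower. Bars on the 10 followed genes are 1 array error and dotted lines mark 2-fold. S100a8 and S100a9 reach 7.62 and 7.32 in WT mice after AOM, whereas S100g is at -2.47 in WT and -2.61 in KO mice.

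S100g, the intestinal calcium carrier, was lower after AOM by a similar factor in both genotypes. Its brighter probe (chrX:159399938-159399997) had relative signals of 8.86, 12.8, 1.60 and 2.11, and the overlapping probe (chrX:159399924-159399983) had 7.15, 10.3, 1.27 and 1.78. Both AOM pools were low and both vehicle pools high, and in each treatment the KO pool was the higher, after AOM by less than 2 array errors for the brighter probe. S100g was 5.55-fold lower after AOM in WT mice and 6.09-fold lower in KO mice. The log2 responses of the genotypes differed by -0.13, within the array error of 1 ratio, and under all alternatives the log2 ratio stayed between -2.50 and -1.45 in WT and between -2.61 and -1.76 in KO mice.

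The other genes of vitamin D-regulated calcium transport did not share 1 pattern. Of 9 genes on that list, 2 (Trpv5 and Cyp24a1) were well above background on no array. Vdr, the vitamin D receptor, had relative signals of 5.88, 5.13, 0.544 and 8.73, so that the WT AOM pool alone was low. After AOM the log2 ratio of KO over WT mice was 4.0 for Vdr and 0.40 for S100g. Trpv6, the calcium channel of the luminal membrane, had 0.160, 0.164, 0.706 and 0.588, and was higher after AOM in both genotypes by 2.14 and 1.84 on the log2 scale. Atp2b1, the calcium pump of the basolateral membrane, had 1.78, 1.96, 1.80 and 3.71. Calb2 (calretinin), another EF-hand protein, was over 2-fold lower after AOM in both genotypes like S100g, with 0.068 and 0.075 with vehicle, 0.025 after AOM in KO mice and a signal not well above background after AOM in WT mice. Calb1 (calbindin-D28k), a further EF-hand calcium carrier, was well above background with vehicle, at 0.0205 and 0.0276, and in neither AOM pool, which gives a difference of at least 1.63-fold in WT and at least 1.88-fold in KO mice. In WT mice 1 of 7 genes of the list with a value was over 2-fold higher after AOM and 3 were over 2-fold lower, and in KO mice 1 of 6 was higher and 1 was lower. Between genotypes after AOM, 3 of 6 were over 2-fold higher in KO mice and 1 was lower.

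The 5 genes closest to S100g over the pools were Mfsd6l, a membrane transporter homolog, Rbp4, the retinol carrier of plasma, Ptger1, a receptor of prostaglandin E2, Dixdc1, a Wnt pathway protein, and Gng13, a G protein subunit. Mfsd6l was closest at a distance of 0.138, with relative signals of 0.358, 0.491, 0.060 and 0.089. Rbp4 was at a distance of 0.378, with 5.56, 7.28, 0.861 and 1.09. Both were lower in the 2 AOM pools and highest in the KO vehicle pool.

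Summed signals of the 7 colonocyte and goblet cell markers were 753, 746, 66.6 and 404, and all 7 were over 2-fold lower after AOM in WT mice. In KO mice 2 of the 7 were over 2-fold lower, 4 were within 2-fold and 1 was higher, Slc26a3, a chloride exchanger, by 2.63-fold. Of the 8 enterocyte markers, 4 of 6 with a value were over 2-fold lower after AOM in WT mice and none was higher. In KO mice 4 of 7 were over 2-fold lower and 2 were higher, Rbp2, a retinol carrier of the cell, by 2.18-fold and Lct, lactase, by at least 5.60-fold. Fabp2, a fatty acid carrier, had 132.8 and 155.8 with vehicle, 0.614 after AOM in WT and 6.10 after AOM in KO mice. After AOM all 7 colonocyte and goblet cell markers were over 2-fold higher in KO than in WT mice, and S100g was within 1.32-fold. Their part in the S100g result was not tested.

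S100a14, a member found mainly in epithelia, and S100a16 were within 2-fold in all 4 comparisons as scaled. The ratios of AOM over vehicle of both genes moved with the scaling. S100a14 (chr3:90332439-90332498) had relative signals of 21.5, 20.7, 26.9 and 23.7, and no pools next to each other in level were 2 array errors apart. After AOM it passed 2-fold without scaling in both genotypes, at 1.35 in WT and 1.05 in KO mice on the log2 scale. In WT mice it also passed under quantile normalization, at 1.04, and, with normexp (a model of the background) before it, at 1.02. S100a16 had 31.6, 28.4, 23.3 and 26.2 by its brighter probe (chr3:90346875-90346934) and 18.2, 16.6, 14.3 and 16.3 by the dimmer (chr3:90346529-90346588), and again no neighboring levels were 2 array errors apart. S100a16 after AOM in WT mice was 1.35-fold below the vehicle pool, and this log2 ratio turned to 0.29 under quantile normalization and to 0.58 without scaling. In KO mice it was 0.73 without scaling. The 8 simple epithelium markers had summed signals of 613, 640, 381 and 574, and 2 of them were over 2-fold lower after AOM in WT mice, Krt20 and Cldn7, and none was higher. In KO mice 1 was higher and 1 lower.

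Of 8 other S100 genes on the array, 6 had a value in every comparison. With vehicle none of the 6 differed by 2-fold between genotypes. After AOM 3 were over 2-fold higher in KO than in WT mice (S100a5, S100a13 and S100b) and none was over 2-fold lower. S100a13, S100b and S100z were over 2-fold lower after AOM in WT mice and also in KO mice, and none of the 6 was over 2-fold higher in either. S100z had 0.478, 0.420, 0.042 and 0.071. S100a2 and S100a3 were within 2-fold in all 4 comparisons, and S100a7a and S100a7l2, related to human psoriasin, were well above background on no array.

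The fused-type S100 genes, which encode large structural proteins of the epidermis such as filaggrin, lie in the same part of chromosome 3. Of 7 such genes, 5 (Flg, Flg2, Hrnr, Rptn and Tchhl1) were well above background on no array. Tchh had 0.053, 0.025, 0.064 and 0.081 and Crnn had 0.050, 0.048, 0.030 and 0.023. Of 11 stratified squamous epithelium markers, 4 were over 2-fold higher after AOM in KO mice and 2 (Sprr1a and Dsg3) over 2-fold lower. In WT mice 3 were higher and 3 (Krt5, Krt10 and Dsg3) lower. Krt5, a basal keratin, had 15.3 in the KO AOM pool and 0.027 to 0.056 in the other 3.

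**Figure D3:**
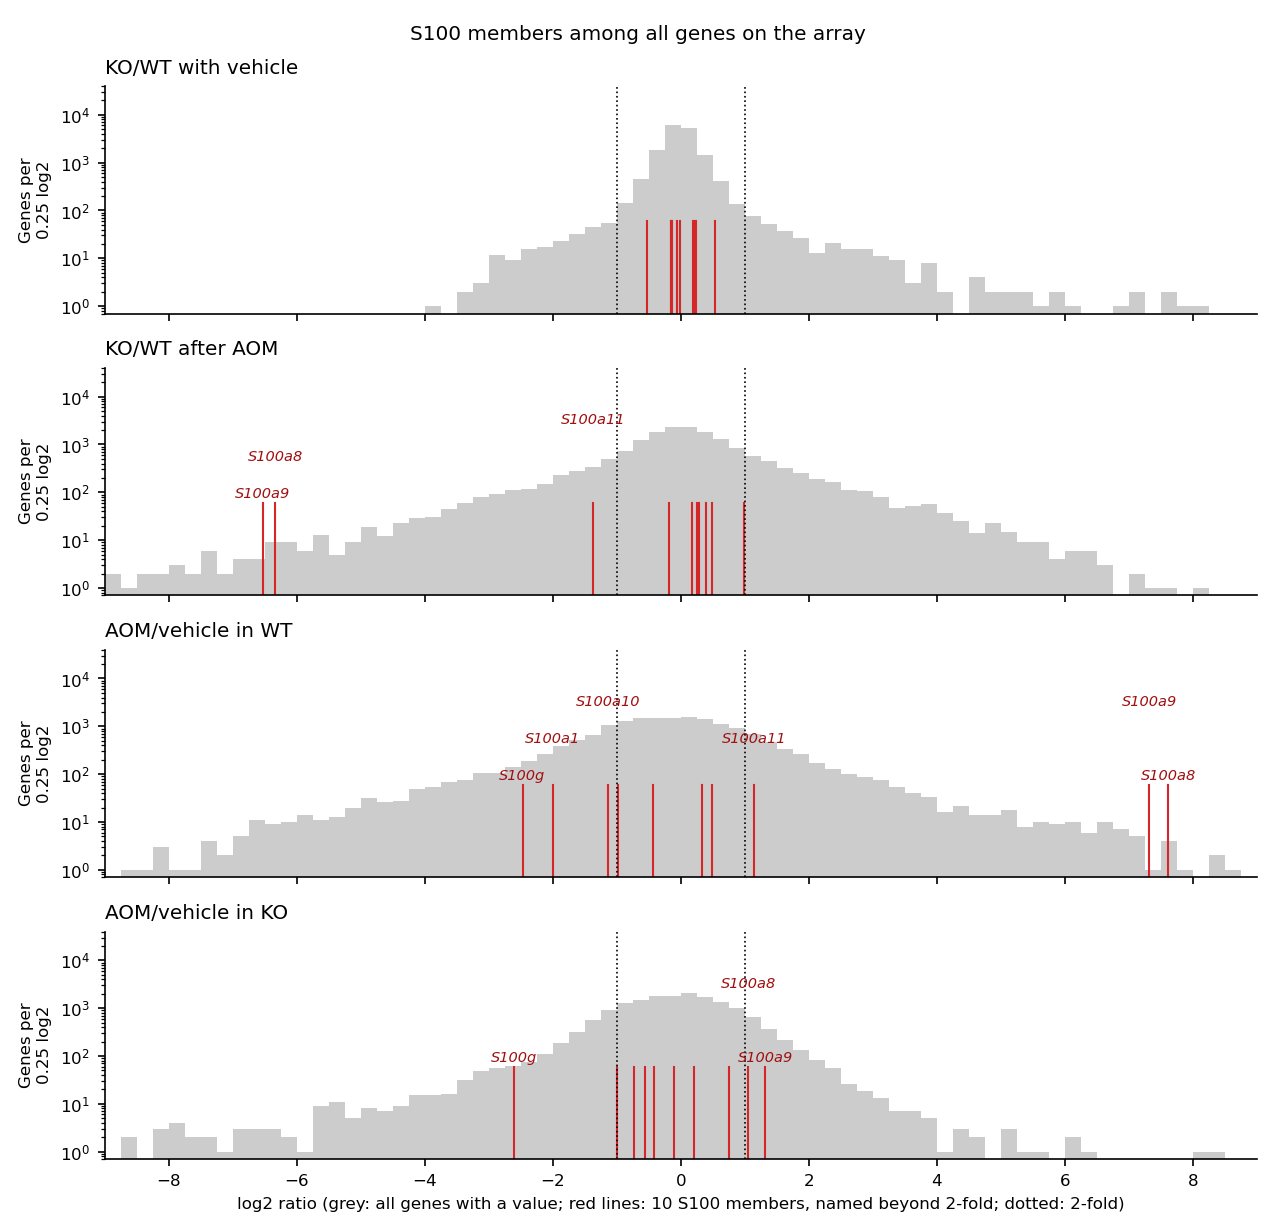
Distribution of log2 ratios of all genes with a value (grey, genes per bin of 0.25 on a log axis) in the 4 comparisons, with the 10 S100 genes as red lines. S100a8 and S100a9 lie at the ends of the distribution in both comparisons that use the WT AOM pool, and 99.9% of genes had a lower ratio of AOM over vehicle in WT mice than either. For S100g, 4.70% of genes in WT and 1.78% in KO mice had a lower ratio of AOM over vehicle.

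**Figure D4:**
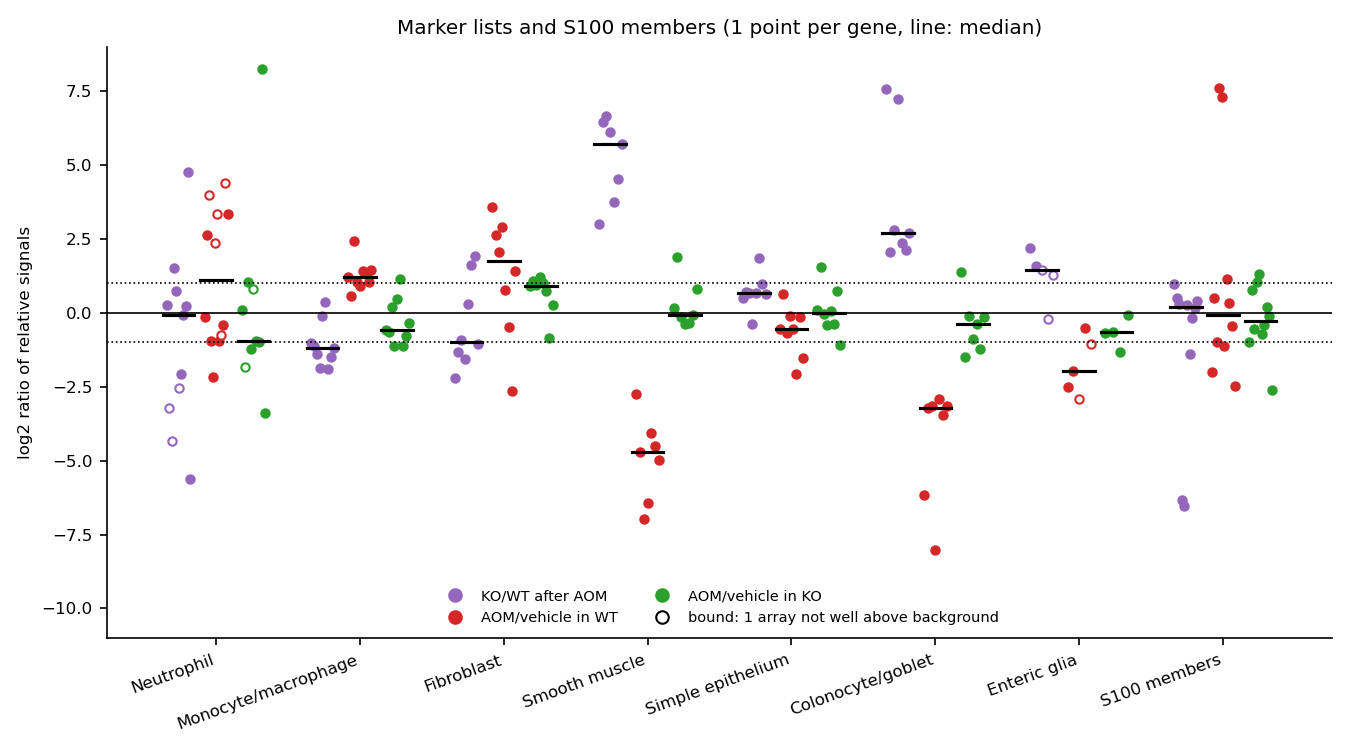
Log2 ratios of single marker genes (points, open where 1 array was not well above background and the value is a bound) and their median (line) for 7 marker lists and the 10 S100 genes in 3 comparisons. Smooth muscle and colonocyte markers are low in the WT AOM pool, with medians of -4.69 and -3.22 against vehicle. S100a8 and S100a9 are the highest points of the S100 genes for AOM over vehicle and the lowest for KO over WT after AOM.

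Ordered along chromosome 3, the S100 genes with large differences after AOM were not all neighbors. S100a1 and S100a13 at the start of the cluster were lower after AOM in WT mice. S100a14, S100a16, S100a4 and S100a6, which follow, were within 2-fold in the same mice as scaled. S100a8 and S100a9, next to each other, were higher, and of the pair farther on S100a11 was higher and S100a10 lower. Of the 42 pairs of neighboring levels over the 14 probes, 19 were more than 2 array errors apart.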

How the data were processed

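RNA pools of 3 to 5 mice (27.7 ng labeled with Cy3) were hybridized to 1 Agilent Whole Mouse Genome array each. The authors deposited spot intensity from Feature Extraction 11.5.1.1, which per the file headers was background-subtracted and detrended and not scaled between arrays. A second deposited table holds the ratio of each intensity to the 75th percentile of the array, which was checked on every spot. The deposited call of a spot well above background was used for detection. Probe positions came from the array files and are on mm9.

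Control spots and spots flagged as outliers were left out, log2 intensities of the spots of a probe were averaged, and the log2 of the 75th percentile of the array was subtracted. Probes were named through a RefSeq table (GRCm38.p6, used for names and upstream windows), which matched 31372 of 39429 probes. The brightest probe stood for a gene. Ratios were differences of log2 values between 2 arrays against a threshold of 2-fold, with a bound where 1 side was not well above background. With 1 array per group no test was run. The array error was that of Feature Extraction for each spot.

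All probes of the 10 genes were named. Of the lists of other S100 genes, partners, receptors, calcium transport and cell type markers, counts were given with the genes past 2-fold, best known or most abundant. For S100a8, S100a9 and S100g the 5 genes at the smallest Euclidean distance over the 3 log2 ratios to the WT vehicle array were named. The members and lists were chosen with earlier results of these data known. The 11 alternatives were scaling, background correction, the deposited table, the filter on dim probes, the probe of a gene and the threshold. Python 3.11.15 with pandas 2.3.3, numpy 2.4.6 and matplotlib 3.10.9 and R 4.3.3 with limma 3.58.1 (normexp, offset 50) were used, and the scripts were tested on simulated data.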

Additional observations from a re-analysis of the deposited data

How the results depend on the processing

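No paired analysis was possible because each group had 1 array, and leaving out an array leaves no comparison. No ratio past 2-fold changed direction under any alternative. Of the counts of the 10 genes past 2-fold, 75 values stayed within 1.5 times the main count and 13 did not. After AOM, no gene was over 2-fold higher in KO than in WT mice, and the count was 1 (S100a1) at a 1.5-fold threshold, with scaling by the median, with the mean over probes and with the dimmest probe. In WT mice the count higher after AOM was 3, and 5 without scaling. The count lower was 3, and 1 at a 4-fold threshold and 1 without scaling, where S100a1 and S100a10 no longer passed 2-fold. It was 2 under quantile normalization, with or without normexp, where S100a10 no longer passed. It was 4 with scaling by the median and at a 1.5-fold threshold. In KO mice the count higher was 2, and 0 at a 4-fold threshold, 4 without scaling and 1 with normexp and quantile normalization. The count lower was 1, and 3 at 1.5-fold, 2 with the mean over probes and 2 with the dimmest probe. Leaving out the scaling moved the median of all genes by 1.04 in WT and 0.84 in KO mice (log2, AOM over vehicle), since the AOM arrays were brighter, and of all genes past 2-fold 86.3% and 91.1% were then higher, against 40.3% and 39.0%. Quantile normalization moved that median by 0.16 and 0.11, and with normexp 50.7% and 50.6% were higher. Signs changed under some scalings for S100a1, S100a6, S100a10, S100a11 and S100a16, each in a comparison where the main ratio was within 2-fold. Low vehicle signals limited the precision of the S100a8 ratios to vehicle.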
